A study of Mus musculus with 17 samples.

Results

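The FGF receptor signalling genes described here are 10 genes chosen by name: the receptors Fgfr1, Fgfr2 and Fgfr3, the adaptors Frs2 and Ptpn11, and the feedback and target genes Spry1, Spry2, Dusp6, Etv4 and Etv5. They are 10 of the 21938 protein-coding genes of the GENCODE vM21 annotation of the mouse assembly GRCm38 (mm10). For each gene, islands of the histone variant H3.3 were collected over the gene body and 5 kb on each side. H3.3 is a histone H3 variant that is deposited outside of DNA replication, and its turnover is high at active genes. An island is a stretch of the genome that the authors' peak calling marked as enriched in ChIP reads. The cover of a gene is the percent of this window that lies in islands.

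Chromatin came from lenses of newborn CD-1 mice, microdissected into the epithelium and the fibers, and was precipitated with an antibody against H3.3. The labels give 12 µg of chromatin and 5 µl of antibody per precipitation, 150 pooled lenses per sample and 2 biological replicates per compartment. The sample titles name day 1 after birth, whereas the protocol in the labels names day 0.5. The mice are described by strain alone, with no transgene or treatment. Each value below therefore belongs to a pool of animals, and in dissected tissue a smaller share of cells with H3.3 at a gene and less H3.3 per cell cannot be told apart.

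Epithelium replicates 1 and 2 had lists of 10389 and 14434 islands, and fiber replicates 1 and 2 had 27059 and 35940. The islands contained 1331369 and 1430373 reads in the epithelium libraries and 5041885 and 5359085 in the fiber libraries. Reads in islands do not give the sequencing depth, which is unknown, and the calling was done library by library. The islands covered 3.88-fold more of the genome in fibers than in epithelium, and the size of the lists and the compartment cannot be told apart. All 8 lens fiber markers had higher cover in both fiber libraries, with fiber values between 86.9% and 100%. Of the 4 lens epithelium markers, 3 also had higher cover in both fiber libraries (Foxe3, Pax6 and Cdh1), and Gja1, which encodes a gap junction protein of the epithelium, had 7.80% and 19.1% in epithelium against 0% and 15.6% in fibers. Kdr and Tek of endothelium, Col1a1 and Col1a2 of mesenchyme, Rpe65 and Tyrp1 of the pigment epithelium and Ptprc of blood had no called island in any library. Over the whole lists, the summed cover of the 4 endothelium markers was 6.48 to 15.6 percentage points in the 4 libraries, that of the 3 mesenchyme markers was 6.01 and 20.0 in epithelium and 34.1 and 38.5 in fibers, and that of the 4 retina and pigment epithelium markers was 13.0 to 60.4. The part of these cells in the values of the FGF receptor signalling genes was not tested.

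Fibroblast growth factors bind receptor tyrosine kinases at the cell surface. The receptor phosphorylates the docking protein Frs2, to which the phosphatase Ptpn11 (Shp2) is recruited, and the signal passes through Ras to the ERK kinases. ERK activity switches on the ETS transcription factors Etv4 and Etv5 and the inhibitors Spry1, Spry2 and Dusp6, which dampen the same pathway. In the lens, FGF signalling is required for the differentiation of epithelial cells into elongated fiber cells, and the vitreous side of the lens, where fibers form, is held to receive more FGF than the epithelium.

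The 200 bases before the transcription start are shown for 5 of the 10 genes, read from GRCm38 on the strand of the gene, 5′ to 3′. The start is that of the principal transcript. Fgfr2 is shown as the gene whose start lay in an island in all 4 libraries, Spry1 and Spry2 as genes with islands over the start in both fiber libraries and none in the epithelium libraries, and Frs2 and Ptpn11 as the genes whose 250 bases before the start held the letters of the ETS core. Capitals mark CCGGAA, the ETS core, and GGGCGG, a GC box of the kind bound by Sp1, on either strand (TTCCGG and CCGCCC on the other strand).
Fgfr2, chr7:130266192-130266391, minus strand: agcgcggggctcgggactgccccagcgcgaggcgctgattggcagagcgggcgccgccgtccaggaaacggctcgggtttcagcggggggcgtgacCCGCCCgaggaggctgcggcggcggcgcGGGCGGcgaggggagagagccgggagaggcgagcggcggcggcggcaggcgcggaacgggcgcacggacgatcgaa
Frs2, chr10:117148511-117148710, minus strand: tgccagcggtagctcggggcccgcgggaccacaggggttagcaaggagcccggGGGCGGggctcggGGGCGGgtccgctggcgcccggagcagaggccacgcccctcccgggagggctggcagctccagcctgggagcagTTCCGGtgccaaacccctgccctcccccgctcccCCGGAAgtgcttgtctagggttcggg
Ptpn11, chr5:121191330-121191529, minus strand: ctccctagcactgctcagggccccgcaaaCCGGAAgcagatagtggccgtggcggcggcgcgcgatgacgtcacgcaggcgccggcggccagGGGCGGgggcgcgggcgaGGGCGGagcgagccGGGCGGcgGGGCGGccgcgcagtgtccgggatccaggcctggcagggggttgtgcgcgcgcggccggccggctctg
Spry1, chr3:37639747-37639946, plus strand: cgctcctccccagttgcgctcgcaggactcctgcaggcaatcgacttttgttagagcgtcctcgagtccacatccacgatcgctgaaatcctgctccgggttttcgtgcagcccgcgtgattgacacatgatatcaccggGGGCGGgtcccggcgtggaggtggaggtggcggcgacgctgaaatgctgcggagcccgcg
Spry2, chr14:105896820-105897019, minus strand: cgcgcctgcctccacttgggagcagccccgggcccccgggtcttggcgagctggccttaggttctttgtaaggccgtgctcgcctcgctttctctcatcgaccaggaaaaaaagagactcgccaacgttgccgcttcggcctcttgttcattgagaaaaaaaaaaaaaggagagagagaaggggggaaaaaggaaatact

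All 200 bases printed for Fgfr2 lay in an island in every library. For Spry1, 146 of the 200 bases lay in the island of fiber replicate 1 and all 200 in that of fiber replicate 2, and for Spry2 the numbers were 181 and 200. The printed bases of Frs2 lay in an island in fiber replicate 2 alone. Within 250 bases before the start, the ETS core was found in 2 of the 10 genes and in 3181 of the 21938 protein-coding genes. In Frs2 its first base lay 60 and 26 bases before the start, and in Ptpn11 171 bases before it. The GC box, a motif searched after the other choices had been made, was found in 8 of the 10 genes and in 41.5% of all genes, and was missing from Spry2 and Dusp6. The 10 genes had a median of 19.0 CpG dinucleotides and 62.4% G and C in these 250 bases, against 9.00 and 54.8% over all genes. A match of letters is a description of the sequence and not a site.

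All 10 genes had higher cover by H3.3 islands in both fiber libraries than in both epithelium libraries. The same held for 44.3% of all protein-coding genes (9726 of 21938). A gene without an island in any library cannot be higher, and 14021 genes had an island. Shares and medians over all genes include the genes without one, whereas all 10 genes had islands. Lower cover in both fiber libraries was found for 0 of the 10 genes and for 0.647% of all genes. The median difference between the compartments was 57 percentage points over the 10 genes, with a range of 18.2 for Dusp6 to 86.4 for Spry2, against a median of 4.65 over all genes. The exact permutation test (two-sided) over 6 labellings of the 4 libraries allows no p below 0.33, and this was its value for each of the 10 genes. The adjusted p of each was 0.47 (the same exact permutation test, Benjamini-Hochberg over 14021 genes with an island in any library), and 9868 genes had this p, so that the test separates none of the 10 genes from the rest. Differences are therefore read against the spread between replicates. Together the windows of the 10 genes held 50.5 and 80.9 kb of islands in epithelium and 353 and 384 kb in fibers, 5.62-fold more in fibers. The fold between single libraries ranged from 4.37 to 7.61. Over the windows of all genes the fold was 3.94.

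**Figure D1:**
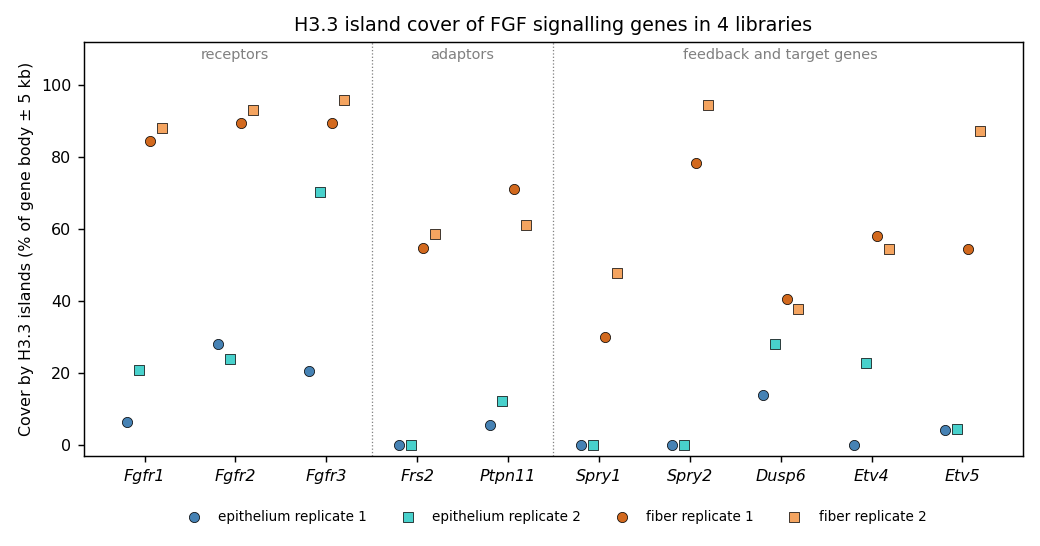
Cover by H3.3 islands, in percent of the gene body and 5 kb on each side (vertical axis), of the 10 genes in the 4 libraries (1 point per library, circles for replicate 1 and squares for replicate 2). Both fiber points lie above both epithelium points for every gene, and the gap is narrowest for Dusp6, from 28.1% to 37.9%.

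Each of the 3 receptors had a cover of 84.5% or more in both fiber libraries. Fgfr1, a receptor made throughout the lens, spans chr8:25518759-25575718 on the plus strand. Its cover was 6.57% and 21.0% in epithelium and 84.5% and 88.3% in fibers. The means were 13.8 ± 10.2% and 86.4 ± 2.66% (SD, n = 2), a difference of 72.6 percentage points. The epithelium libraries shared no island at Fgfr1. Replicate 1 had 1 island, 51.0 to 55.4 kb after the start, and replicate 2 had 5 islands at other places. In fibers 6 and 5 islands ran over most of the gene, with 1 island over the start in each library.

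Fgfr2, whose isoforms bind different sets of ligands, lies on the minus strand of chromosome 7, and its principal transcript spans chr7:130163709-130266191. The cover was 28.3% and 24.1% in epithelium and 89.7% and 93.3% in fibers, or 26.2 ± 2.96% against 91.5 ± 2.51% (SD, n = 2). Both compartments had close replicates here, and the difference of 65.3 percentage points was far larger than either spread. Fgfr2 was the only one of the 10 genes with an island over the start in both epithelium libraries, a state found for 6.89% of all genes. That island was 2400 and 5400 bp long in epithelium and 9400 and 12400 bp long in fibers. It was dense as well, since 98.2% and 70.0% of all islands of the epithelium libraries and 99.0% and 85.1% of those of the fiber libraries had fewer reads per kb. The annotation also holds a transcript of Fgfr2 that stretches the gene record to 2.96 Mb and over 30 other protein-coding genes. It was set aside after this length had been seen, and over the whole record the cover of Fgfr2 was 8.29% and 8.19% in epithelium and 29.8% and 29.2% in fibers, a difference of 21.2 percentage points.

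Fgfr3 spans chr5:33721724-33737067 on the plus strand and encodes a receptor known for restraining bone growth. Its cover was 20.8% and 70.5% in epithelium and 89.7% and 96.1% in fibers. The epithelium libraries differed widely, with a mean of 45.6 ± 35.2% against 92.9 ± 4.46% in fibers (SD, n = 2), so that the difference of 47.3 percentage points was little larger than the epithelium spread. Without epithelium replicate 1 the difference was 22.4, and without epithelium replicate 2 it was 72.1. In both fiber libraries 1 island, 31400 and 22200 bp long, covered the whole body of Fgfr3. In all 4 libraries the island at the 3′ end of Fgfr3 reached the neighbour Letm1. In fiber replicate 1 another island, 46000 bp long, lay upstream, at -50.1 to -4.12 kb from the start, and reached over the 3′ end of Tacc3, a gene named here for this island alone. The window of Fgfr1 likewise held the end of the neighbour Letm2, which 1 island of each fiber library reached.

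Frs2, the docking protein that FGF receptors phosphorylate, spans chr10:117069427-117148510 on the minus strand. It had no called island in either epithelium library, and its cover in fibers was 54.8% and 58.8% (mean 56.8 ± 2.86%, SD, n = 2). Islands in both fiber libraries and in neither epithelium library were found for Frs2, Spry1 and Spry2, 3 of the 10 genes, and for 15.2% of all genes. The fiber islands of Frs2 were many and short for so long a gene, 9 and 7 islands, the longest being 7200 and 13200 bp. The start lay in an island in fiber replicate 2 and not in fiber replicate 1. Its islands held 26.3 reads per kb in both fiber libraries, near the library medians of 27.4 and 27.5.

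Ptpn11 (Shp2), a phosphatase that carries the signal from Frs2 towards Ras, spans chr5:121130541-121191329 on the minus strand. The cover was 5.65% and 12.4% in epithelium and 71.2% and 61.3% in fibers, or 9.04 ± 4.79% against 66.3 ± 6.99% (SD, n = 2). The difference of 57.2 percentage points was larger than both spreads. All epithelium islands of Ptpn11 lay near the 5′ end of its body and none lay over the start. The start lay in an island of 22000 and 9800 bp in the fiber libraries.

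The feedback inhibitors Spry1 and Spry2 encode Sprouty proteins, which block the passage of the signal from receptors to ERK. Neither had a called island in epithelium. Spry1 (chr3:37639947-37644598, plus strand) had a cover of 30.0% and 47.8% in fibers, and Spry2 (chr14:105891947-105896819, minus strand) had 78.4% and 94.5%. Spry1 was marked mainly on the gene itself, where islands covered 91.4% and 100% of the body. For Spry2 islands also filled most of the flanks, as 3 islands of at most 6200 bp in fiber replicate 1 and as 1 island of 16000 bp in fiber replicate 2. The mean differences were 38.9 for Spry1 and 86.4 for Spry2, with SDs in fibers of 12.5 and 11.4 (n = 2).

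Dusp6, a phosphatase that removes the activating phosphates of ERK, spans chr10:99263231-99267488 on the plus strand and differed least between the compartments. Its cover was 14.0% and 28.1% in epithelium and 40.7% and 37.9% in fibers, a difference of 18.2 percentage points against SDs of 9.92 and 1.98 (n = 2). Without epithelium replicate 1 the difference was 11.2. Each library had exactly 1 island at Dusp6, with lengths of 2000 and 4000 bp in epithelium and 5800 and 5400 bp in fibers, and nearly at the same place. In epithelium replicate 1 it ended before the start, and in the other 3 libraries it covered the start. Over the body alone the cover was 0% and 46.3% in epithelium and 79.1% and 55.7% in fibers, a mean difference of 44.3.

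Etv4 and Etv5 encode ETS transcription factors that ERK signalling induces. Etv4 (chr11:101769742-101785310, minus strand) had a cover of 0% and 22.9% in epithelium and 58.1% and 54.6% in fibers, with a difference of 44.9 percentage points and SDs of 16.2 and 2.46 (n = 2). The islands at its 3′ end reached the neighbour Dhx8 in both fiber libraries and in epithelium replicate 2. Its start lay in an island in fiber replicate 2 alone. Etv5 (chr16:22381309-22439719, minus strand) had 4.39% and 4.68% in epithelium and 54.6% and 87.3% in fibers. Its epithelium libraries were close in cover and its fiber libraries were not, with SDs of 0.207 and 23.2 (n = 2) beside a difference of 66.4 percentage points. The epithelium libraries shared no island at Etv5, however. The island of replicate 1 lay at 9.32 to 12.3 kb from the start, and that of replicate 2 at -3.48 to -0.282 kb. The small SD is thus one of length and not of place. An island of 30400 bp lay over the start of Etv5 in fiber replicate 2, and one of 7800 bp in fiber replicate 1.

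**Figure D2:**
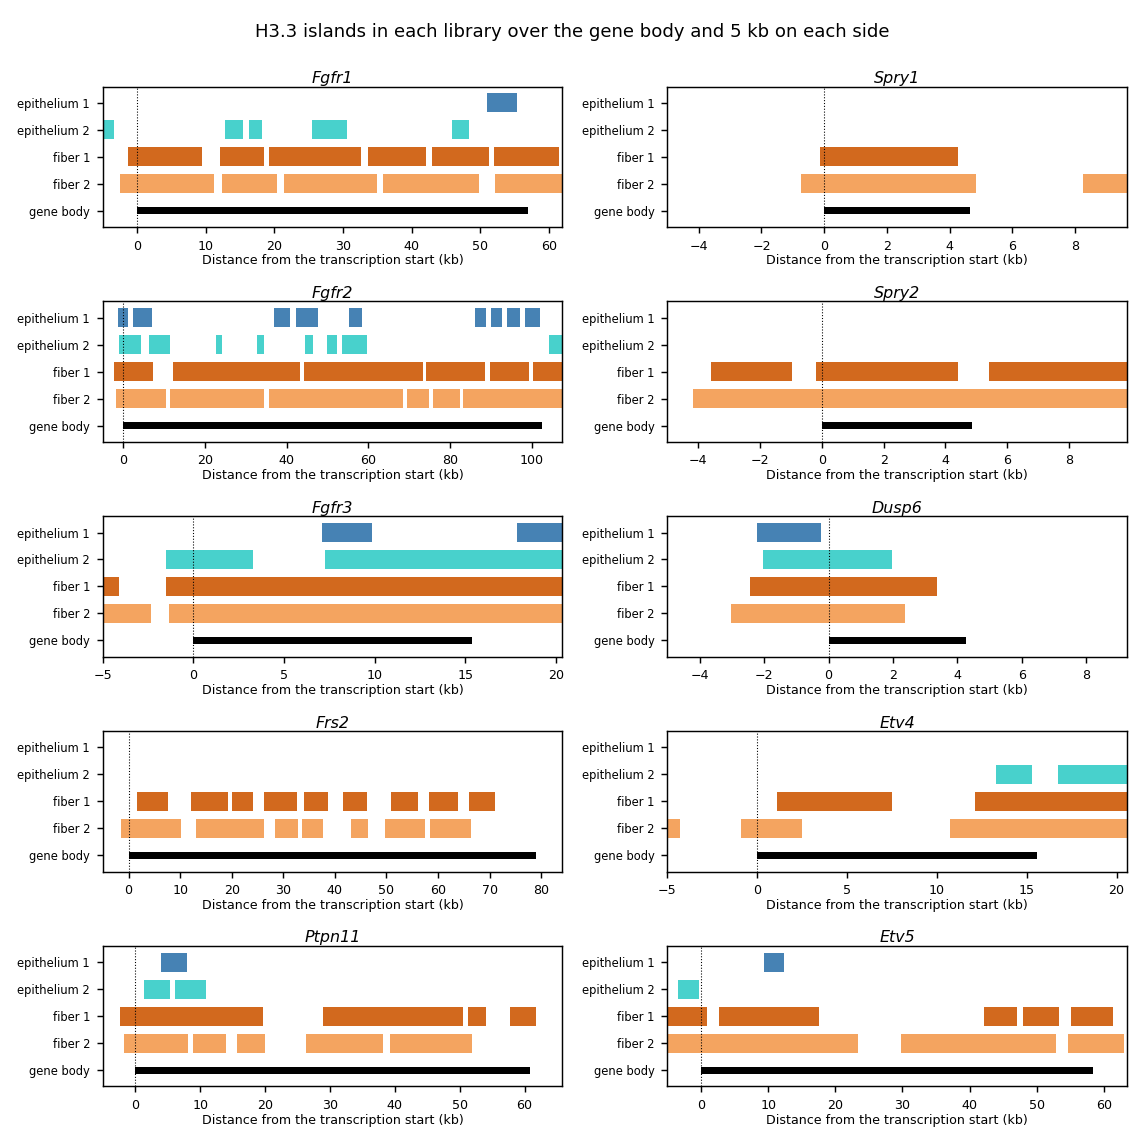
Islands of each library (colored bars, 1 row per library) over the body of each gene (black bar) and 5 kb on each side, by distance from the transcription start in kb (horizontal axis, to a different scale in each panel). Epithelium rows are empty for Frs2, Spry1 and Spry2, and fiber islands run over most of the bodies of Fgfr1, Fgfr2 and Fgfr3.

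The difference of the 10 genes was set beside that of all protein-coding genes. These include the genes without an island in any library, which show no difference by construction, so that the ranks would be lower among genes with islands. That of Spry2 was larger than in 99.8% of them, that of Fgfr1 larger than in 99.0%, and that of Etv5 and Fgfr2 larger than in 98.0% and 97.8%. Dusp6 stood lowest, with a smaller difference in 70.2% of all genes. Cover above 50% in both fiber libraries was found for 8 of the 10 genes, all but Spry1 and Dusp6, and for 14.2% of all genes.

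**Figure D3:**
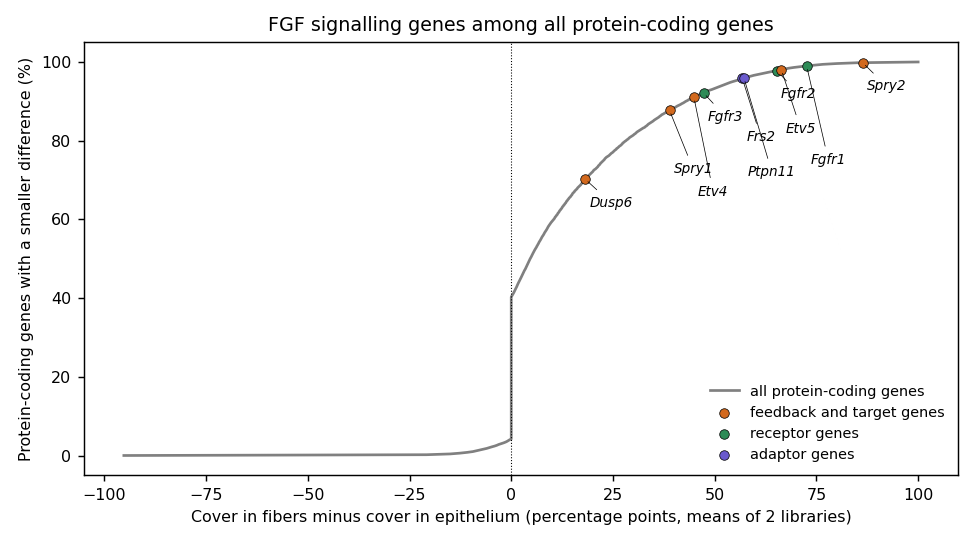
Cumulative distribution of the difference in cover between fibers and epithelium, in percentage points, over 21938 protein-coding genes (grey line, vertical axis in percent of genes), with the 10 genes marked by role. Except for Dusp6, at 70.2%, the marked genes lie at 87.7% or above.

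The receptors were then compared with the feedback and target genes, which is a description over 3 and 5 genes. The median cover of the receptors was 20.8% and 24.1% in epithelium and 89.7% and 93.3% in fibers. That of the feedback and target genes was 0% and 4.68% in epithelium and 54.6% and 54.6% in fibers. The equal fiber medians are those of different genes, Etv5 in replicate 1 and Etv4 in replicate 2. Pooled over the windows of this group, fiber cover was 53.7% and 72.7%. The median of the receptors stood higher in each of the 4 libraries, by 20.8 and 19.4 percentage points in epithelium and by 35.1 and 38.6 in fibers. Single genes of the groups overlapped in every library but fiber replicate 1. In fiber replicate 2 Spry2 had 94.5%, against 88.3% for Fgfr1 and 93.3% for Fgfr2. In epithelium replicate 2 Dusp6 had 28.1%, against 21.0% for Fgfr1 and 24.1% for Fgfr2. The adaptors had medians of 2.83% and 6.22% in epithelium and of 63.0% and 60.1% in fibers.

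The size of the fiber difference between these groups depended on the flanks. Over the gene bodies alone the receptors had medians of 91.4% and 95.7% in fibers and the feedback and target genes 79.1% and 86.0%, which brings the difference to 12.3 and 9.75 percentage points. The feedback and target medians over the bodies are those of Dusp6 in replicate 1 and Etv5 in replicate 2. The bodies of Spry1, Spry2 and Dusp6 are shorter than 5 kb, at 4.65, 4.87 and 4.26 kb, so that flanks make up most of their windows. Those of Etv4 and Etv5 are 15.6 and 58.4 kb long, and those of Fgfr1, Fgfr2 and Fgfr3 57, 102 and 15.3 kb. The part of body length in the difference between the groups was not tested. Over the bodies alone the epithelium difference was 18.2 and 22.2, as the feedback and target genes had a median of 0% there in both libraries.

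In length, islands covered 41.5 and 59 kb of the receptor windows in epithelium and 180 and 188 kb in fibers, 3.67-fold more, with 3.05 to 4.54 between single libraries. Full cover of these windows in fibers would have given 4.08-fold. For the feedback and target genes the lengths were 5.00 and 13.1 kb in epithelium, from 2 and 4 islands, and 74.0 and 100 kb in fibers, 9.64-fold more, with 5.67 to 20.0 between single libraries. Here full cover would have given 15.3-fold. The fold is bounded by the cover in epithelium, so that the receptors and the feedback and target genes cannot be ranked by it.

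Islands were also longer in fibers. The median length of the islands in the receptor windows was 3300 and 3200 bp in epithelium and 10200 and 13600 bp in fibers, and that in the windows of feedback and target genes was 2500 and 3600 bp against 6000 and 6900 bp. Of the 6 genes with islands in all 4 libraries, Fgfr1, Fgfr2, Fgfr3, Ptpn11, Dusp6 and Etv5, all 6 had a longest island that was longer in both fiber libraries, as did 76.2% of the 5131 genes with islands in all 4 libraries. The 6 of 6 thus stands against a background in which most genes do the same.

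Starts lay in islands more often in fibers. The number of the 10 genes with the start in an island was 1 and 3 in epithelium and 8 and 10 in fibers. Over all genes the shares were 12.5% and 14.7% in epithelium and 36.8% and 42.1% in fibers. A rise in fibers is thus not particular to these genes. In both fiber libraries it was 8 genes, all but Frs2 and Etv4, against 31.9% of all genes. Starts in an island in both fiber libraries and in neither epithelium library were found for 5 genes, Fgfr1, Ptpn11, Spry1, Spry2 and Etv5, against 15.9% of all genes.

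Along the genes, cover in fibers was highest in the gene body from its start on and lower before it. Averaged over the 10 genes it was 37.2% and 52.2% in the 5 kb upstream, 86.9% and 95.0% in the first of 5 equal parts of the body, 67% and 70.6% in the last of these parts and 55.6% and 62.2% in the 5 kb downstream. The receptors kept a high cover to the end of the window, with 94.1% and 91.7% in the last part and 96.5% and 100% downstream. Part of this downstream cover lies in islands that reach Letm1 and Letm2. In the adaptors the last part had 49.7% and 23.2% and the 5 kb downstream 9.40% and 0%.

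**Figure D4:**
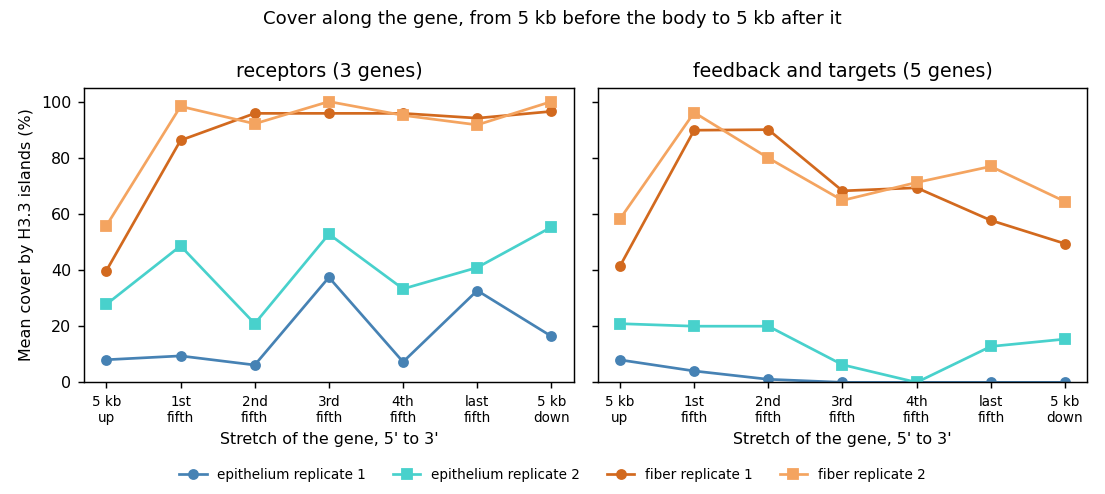
Mean cover by H3.3 islands (vertical axis, percent) in the 5 kb before the gene body, in 5 equal parts of the body and in the 5 kb after it, for the receptors (left, 3 genes) and the feedback and target genes (right, 5 genes), with 1 line per library. In fibers the first part of the body had 86.2% and 98.3% in the receptors and 89.8% and 96.1% in the feedback and target genes, and the receptor lines lie between 91.7% and 100% from the second part on.

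Within islands, reads per kb differed far less than cover. Reads per kb are known only for stretches that passed the calling in that library, so that low values are left out by construction. Over all islands the library medians were 28.3 and 28.1 in epithelium and 27.4 and 27.5 in fibers. The narrow range is therefore not read as a trait of these genes. The ratio of fiber to epithelium reads per kb had a median of 1.08 over the 6 genes with islands in all 4 libraries, against 1.02 over all 5131 such genes. Reads per kb were higher in both fiber libraries for 4 of the 6, Fgfr1, Fgfr2, Fgfr3 and Dusp6, and for 30.8% of the 5131 genes. Fgfr3 had the highest ratio, 1.34, with 1.24 to 1.45 between single libraries, and 98.8% of the 5131 genes had a lower one. Its islands held 31.1 and 27.1 reads per kb in epithelium and 38.6 and 39.2 in fibers. The value of fiber replicate 1 includes the island of 46000 bp upstream of the gene. The island over the start of Fgfr3 held 38.1 and 40.1 reads per kb in the fiber libraries. Fgfr1 followed with a ratio of 1.16, from 23.6 and 25.2 reads per kb in epithelium to 28.7 and 27.9 in fibers. For Ptpn11 and Etv5 the libraries of the compartments overlapped, with ratios between single libraries of 0.958 to 1.20 and 0.947 to 1.06. Without normalization to sequencing depth these reads per kb compare islands as called, and divided by each library's reads in islands the median ratio was 0.285.

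**Figure D5:**
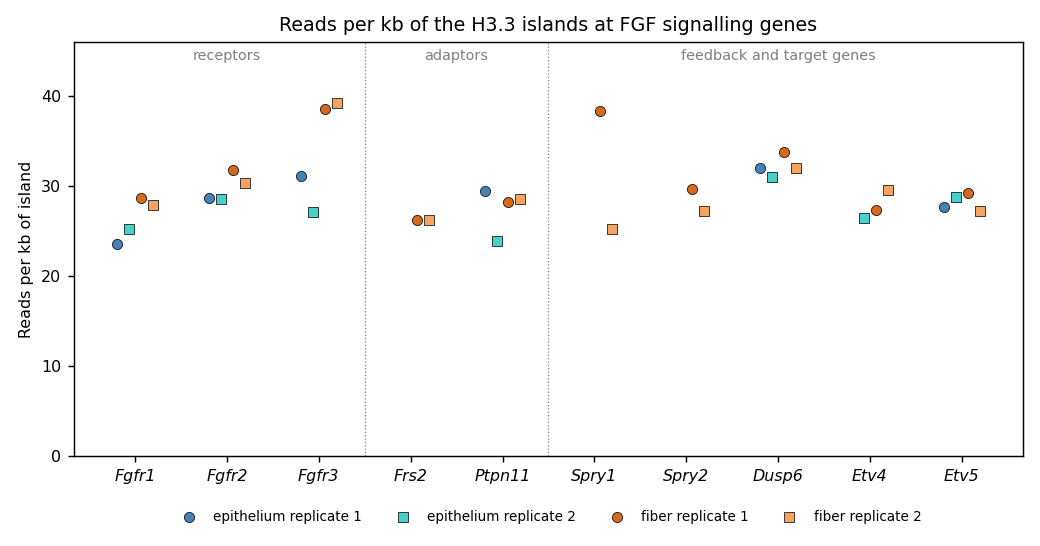
Reads per kb of the islands at each of the 10 genes (vertical axis) in each library, with no point where a library had no island. All values lie between 23.6 and 39.2, and both fiber points of Fgfr3 stand above its epithelium points.

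Because the fiber lists are longer, the comparison was repeated with the same number of islands, 10389 of each library. This left the list of epithelium replicate 1 whole. The length covered was not made equal, and a choice by read count favors long islands. With the islands of highest read count, all 10 genes had higher cover in both fiber libraries, against 21.1% of all genes. Lower cover was found for 0 of the 10 against 2.98%. The differences of Fgfr1 and Fgfr2 were then 76.1 and 67.5 percentage points, against 72.6 and 65.3 with the full lists. The count of 10 therefore does not remove the size of the lists from the comparison. With the islands of most reads per kb, 7 of the 10 had higher cover in both fiber libraries, against 15.3% of all genes, and 0 had lower cover against 4.75%. The 3 genes that then overlapped between the compartments were Spry1, Spry2 and Etv5, with mean differences of 15.0, 24.2 and 14.6 percentage points. Those of Fgfr1 and Fgfr2 shrank to 24.6 and 31.8, those of Frs2 and Ptpn11 to 11.9 and 21.3, and that of Fgfr3 was 73.0. With this selection, starts lay in islands in both fiber libraries for 3 of the 10 genes, Fgfr2, Fgfr3 and Dusp6, and for 11.5% of all genes.

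In the windows of the 10 genes, 92.8% to 97.6% of the island length of an epithelium library lay in islands of a fiber library. The fiber islands themselves covered 70.4% and 76.5% of these windows, which is the share to read this against. The fiber libraries had 318 kb in common, 89.9% of the length in replicate 1 and 82.7% of that in replicate 2. The epithelium libraries covered 50.5 and 80.9 of the 502 kb of windows and had 20.1 kb in common, 39.8% of the length in replicate 1 and 24.8% of that in replicate 2. These shares move with the cover of the libraries, and no order of the compartments is read from them.

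The other genes of the pathway were taken from lists by role. Of the 18 ligands, 3 had higher cover in both fiber libraries and 0 had lower cover, and 9 had no called island in any library. Among all protein-coding genes, 14021 of 21938 had an island in any library, so that genes without one are common. The median difference of the ligands was 0. Among the 3 ligands whose libraries did not overlap, the largest differences were those of Fgf22, with 44.3% and 41.4% in epithelium and 87.2% and 63.6% in fibers, and of Fgf1, with 0% and 2.66% against 10.9% and 17.7%. Of the 4 other receptors and coreceptors, 2 had higher cover in both fiber libraries and 0 lower, with a median difference of 6.90. Fgfrl1, a receptor without a kinase domain, had no called island in epithelium and 77.2% and 76.8% in fibers, and the coreceptor Klb had none in epithelium and 11.8% and 8.33% in fibers.

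The remaining lists lie downstream of the receptors. Of 16 other adaptors and kinases of the cascade, 14 had higher cover in both fiber libraries and 0 lower, with a median difference of 24.7 percentage points. Shc1, an adaptor, had 45.4% and 19.5% in epithelium and 100% in both fiber libraries. Of 8 other feedback inhibitors, 7 had higher cover in both fiber libraries and 0 lower, with a median of 24.8. The ERK phosphatase Dusp4 had 0% and 7.08% in epithelium and 26.6% and 49.6% in fibers, and Spred3 had 41.2% and 23.2% against 74.9% and 52.7%. Of 10 other targets, 5 had higher cover in both fiber libraries and 0 lower, with a median of 21.4. Egr1, an immediate early transcription factor, had no called island in epithelium and 60.5% and 81.6% in fibers, and Myc had none against 62.9% and 37.2%. These counts stand beside the 44.3% of all genes with higher cover in both fiber libraries and the median difference of 4.65, and the count of the targets is near that share.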

How the data were processed

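The data are 4 libraries of H3.3 ChIP-seq, 2 of lens epithelium and 2 of lens fibers. The authors aligned single-end reads to mm10 using BWA at default settings. SICER2 was then run by the authors on every library by itself, and the names of the lists give its settings as windows of 200 bp, gaps of 600 bp and FDR 0.01. Each deposited list holds the start, the end and the read count of every island, and the counts are raw. No island reached beyond a chromosome of GRCm38. Use of the pooled input, removal of duplicate reads and total depth are not given in the sources used here, so that counting intervals and detection limits could not be given, and the 2 libraries per compartment limit the precision.

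The 10 genes and the pathway and marker lists were chosen with earlier results of these data known. The gene body was the span of the APPRIS principal transcript in GENCODE vM21, with 5 kb on each side. Cover was the share of this window in islands, and reads per kb were summed reads over summed lengths of whole islands that touch it. The cover of each gene was compared between the compartments by an exact two-sided permutation test over libraries with Benjamini-Hochberg adjustment. Receptors were compared with feedback and target genes without a test. Genes named were the 10, up to 2 with the largest rise and 2 with the largest fall in each pathway list among genes whose libraries did not overlap, the neighbours in a window and the markers. One gene that this rule names is not reported here. The alternatives changed the flanks, the islands kept, the joining of islands, the start, the scaling of reads per kb and the libraries. The whole gene record as body was added after seeing the data. Bases were read from the RefSeq copy of GRCm38.

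The software was numpy 2.4.6, scipy 1.17.1 and matplotlib 3.10.9 under Python 3.11.15. Cover was checked against bedtools 2.31.1, with a different value in 0 windows. On simulated islands of known cover, 0 of 500 genes had a wrong value. All 200 planted genes were found, which the size of the planted rise fixed in advance. The simulation thus checks the calculation alone and gives no rate of false calls. Bisulfite sequencing libraries of the same series and the pooled input sample are not analysed here.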

Additional observations from a re-analysis of the deposited data

How the results depend on the processing

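Of 14 alternative settings, 2 (the replicate block and islands of at least 600 bp) changed no difference of a single gene. The other 12 changed 92 differences, of which 88 kept their direction and the separation of the compartments, 4 kept the direction alone and 0 reversed. Of the 4, Spry1 (15.0), Spry2 (24.2) and Etv5 (14.6) were found with the same number of islands by reads per kb. The last was Spry2 (24.2) with islands at or above the median reads per kb of their library. The cause was not tested. Receptors minus feedback and target genes in fibers (36.9) was 11.0 over the gene body alone, 53.1 with the same number of islands by read count, 50.8 with islands of at least the median density and 25.6 with the whole gene record. In epithelium (20.1) it was 17.5 with 10 kb on each side, 16.4 and 17.9 with the same number of islands by reads per kb and by read count, 13.0 with islands of at least the median density and 12.6 with the whole record. The ratio of reads per kb (1.08, over 6 genes) was 1.12 over the gene body alone and 1.13 with the same number of islands by reads per kb. Both of these values rest on 4 genes, so that the genes differ as well as the setting. Divided by the reads in islands, the ratio was 0.285, since fiber libraries hold more of them. The starts in islands in both fiber libraries (8) fell to 3 with the same number of islands by reads per kb and to 5 with islands of at least the median density. Leaving out 1 library at a time gave 35.1 to 38.6 in fibers, 19.4 to 20.8 in epithelium and 1.06 to 1.09 for the ratio (6 or 7 genes). It also gave 10 of 10 genes with higher cover in fibers, and 8 to 10 starts. Neither count could fall, since genes separated in all libraries stay separated in fewer. Differences with 1 library left out therefore kept direction and separation by construction.

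With the replicate number as a block (replicate block), 10 of 10 genes had higher cover in fibers within both pairs. Both this count and the unchanged differences follow by construction from the separation of the compartments. Deviations of libraries with the same number had a correlation of 0.00870 over 14021 genes, so that no pairing by number was seen in cover. This value cannot tell whether samples with the same number came from the same lenses. A paired exact permutation test of 2 pairs cannot go below p = 0.50. Depth is unknown, and a gene without an island may lie under the calling threshold of a smaller library.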
